A study of Homo sapiens with 6 samples.

Results

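The genes described here are 9 genes of the tight junction, found by symbol among the 57773 genes of the deposited count table: the claudins CLDN1, CLDN2, CLDN4, CLDN6, CLDN12 and CLDN14, the MARVEL-domain proteins OCLN (occludin) and MARVELD2 (tricellulin), and the scaffold TJP1 (ZO-1). All 9 were found, and all 9 had enough reads to be tested. RNA was sequenced from 6 cultures of HepG2, a human hepatocellular carcinoma line used here below passage 20 and grown as a monolayer in MEM with serum. For the treatment all 6 cultures were washed and moved to serum-free MEM, as the study's methods describe. TGFβ cultures (n = 3) received recombinant human TGFB1 at 5 ng/mL and vehicle cultures (n = 3) received the vehicle, both for 3 h, and the cultures of each group carry the numbers 1 to 3. Same-numbered cultures shared a sequencing lane for numbers 1 and 2 but not for number 3. The comparison asks which genes respond to the ligand within this time.

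Tight junctions seal the space between neighboring epithelial cells. Claudins form the strands of the seal, and which claudins a cell makes sets which ions and solutes can pass. Occludin lines the strands, tricellulin sits where 3 cells meet, and ZO-1 ties the strands to actin. In liver these junctions keep bile in the canaliculi, and CLDN1 and OCLN are also entry factors for hepatitis C virus. TGFβ is known to loosen epithelial contacts over longer exposures.

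Reads on genes ranged from 60815385 to 100099136 per culture. The cells carried the hepatocyte markers that the label calls for: all 9 listed, among them ALB and HNF4A, were above 1 RPKM, and their summed level ranged from 7135 to 7899 RPKM with vehicle and from 6600 to 7807 RPKM with TGFβ. Of the endothelial and of the keratinocyte and airway markers, none reached 1 RPKM. Among the fibroblast markers COL1A2, COL3A1, DCN and LUM had at most 14 reads in any culture, while PDGFRB and COL1A1 were expressed. Without the replicate block edgeR called 0 of these markers, with PDGFRB, COL1A1 and LYZ at an unadjusted P under 0.05. With it 2 of the 9 hepatocyte markers fell, TTR (log2 fold change -0.25, edgeR FDR 0.0495) and FGB (-0.22, edgeR FDR 0.0331), as did LYZ (-0.34, edgeR FDR 0.0157), which DESeq2 also called lower without it, while PDGFRB (1.19, edgeR FDR 7.25e-06) and COL1A1 (0.60, edgeR FDR 0.00806) rose. Over all tested genes 8.08% rose and 3.75% fell with the block. The summed fibroblast markers ranged from 1.33 to 1.58 RPKM with vehicle and from 2.21 to 3.70 RPKM with TGFβ. Among the leukocyte markers PTPRC and CD3E had at most 1 read in any culture, and LYZ carried most of a summed level from 508 to 686 RPKM with vehicle and from 447 to 459 RPKM with TGFβ. The part of these differences in the results below was not tested.

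TGFβ raised CLDN4, CLDN14 and TJP1 and lowered CLDN1, while CLDN2, CLDN6, CLDN12, OCLN and MARVELD2 did not pass the test. CLDN4 was 1.85-fold higher, CLDN14 was 3.08-fold higher from a very low level, TJP1 was 1.31-fold higher and CLDN1 was 1.26-fold lower. Genes were called at an FDR under 0.05 in the quasi-likelihood test of edgeR, adjusted over 22747 genes, and SE below is the standard error of a log2 fold change. Of the 9 genes 3 were called higher, against 3.11% of all tested genes, and 1 was called lower, against 1.01% of all tested genes. The 9 genes were chosen with earlier results of these data known, so these counts are a description, not a test. The median log2 fold change of the 9 genes was -0.09 (range -0.33 to 1.62), against -0.01 over all tested genes. With the culture number as a replicate block the same 3 and 1 genes were called, and over all tested genes 8.08% were then higher and 3.75% lower.

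The promoters of the 4 called genes are shown first, because 3 of these genes rose together and 1 fell. Each line gives the RefSeq promoter on GRCh38.p14, from 250 bases before the start site to 50 after it, 5′ to 3′ on the gene's own strand. CLDN14 has 3 and TJP1 has 4 RefSeq start sites, of which the most upstream is printed. Which start sites HepG2 cells use was not measured here. Capitals mark 3 kinds of motif, searched on both strands: the SMAD core (CAGAC or GTCTG), the E-box that Snail and ZEB repressors bind (CACCTG or CAGGTG) and the AP-1 site (TGANTCA).
CLDN4 promoter (chr7:73830746-73831045, plus strand): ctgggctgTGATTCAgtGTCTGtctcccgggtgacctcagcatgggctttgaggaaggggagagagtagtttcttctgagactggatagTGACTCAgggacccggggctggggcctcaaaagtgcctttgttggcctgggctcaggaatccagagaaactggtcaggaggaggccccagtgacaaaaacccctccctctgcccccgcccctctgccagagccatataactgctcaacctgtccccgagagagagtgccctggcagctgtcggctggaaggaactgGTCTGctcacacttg
CLDN14 promoter (chr21:36576520-36576819, minus strand): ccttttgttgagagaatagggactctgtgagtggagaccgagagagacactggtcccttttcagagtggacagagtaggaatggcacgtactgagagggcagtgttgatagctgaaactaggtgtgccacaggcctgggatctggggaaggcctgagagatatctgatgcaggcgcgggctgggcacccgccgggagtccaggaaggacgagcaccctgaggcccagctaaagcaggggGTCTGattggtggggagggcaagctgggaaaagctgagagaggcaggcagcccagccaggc
TJP1 promoter (chr15:29969000-29969299, minus strand): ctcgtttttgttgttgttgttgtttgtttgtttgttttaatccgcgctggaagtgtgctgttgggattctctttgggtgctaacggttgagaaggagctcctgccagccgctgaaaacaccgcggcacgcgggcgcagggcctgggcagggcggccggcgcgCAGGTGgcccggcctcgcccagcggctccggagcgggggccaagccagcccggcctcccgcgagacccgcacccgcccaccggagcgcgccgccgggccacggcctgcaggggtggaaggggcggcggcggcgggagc
CLDN1 promoter (chr3:190322397-190322696, minus strand): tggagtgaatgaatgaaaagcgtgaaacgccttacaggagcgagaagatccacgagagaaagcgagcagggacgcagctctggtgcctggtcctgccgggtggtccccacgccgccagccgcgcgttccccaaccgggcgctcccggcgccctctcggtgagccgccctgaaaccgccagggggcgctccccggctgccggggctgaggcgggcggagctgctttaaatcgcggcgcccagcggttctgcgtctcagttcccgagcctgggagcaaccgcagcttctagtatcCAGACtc

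In the CLDN4 window AP-1 letters began at -242 (TGATTCA) and at -161 (TGACTCA) from the start site, and SMAD letters at -233 and at 36. No E-box letters were found there. The CLDN14 window held SMAD letters at -11. The TJP1 window held a CAGGTG E-box at -88, and the CLDN1 window held SMAD letters at 44. None of these matches overlapped another. Windows of the start sites not printed held other letters, with sites numbered from upstream. For CLDN14 start site 2 held E-boxes at -62 and 32, and start site 3 held SMAD letters at -137 and an E-box at 36. For TJP1 start site 2 held SMAD letters at -232 and no E-box. RefSeq start sites of the 9 genes gave 16 windows, of which 8 held the SMAD core, 6 the E-box and 2 the AP-1 site. Of 35116 RefSeq promoters of the same length, 45.3% held the SMAD core, 20.6% the E-box and 7.71% the AP-1 site. The other AP-1 match among the 9 genes was in CLDN2, at -60 of its upstream start site. A match in these windows is a description of the letters only.

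Values below are given as CPM, counts scaled to library size with TMM factors, which compare cultures for a gene. Where genes are compared with each other the authors' RPKM is used, which also divides by gene length.

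CLDN4 (ENSG00000189143, hg19 chromosome 7 from 73213872 to 73247014, plus strand) encodes a claudin that tightens the barrier to sodium in several epithelia. Its level was 52.4, 50.5 and 48.6 CPM in vehicle cultures 1, 2 and 3 and 91.4, 93.0 and 95.5 CPM in TGFβ cultures 1, 2 and 3. The groups did not overlap, and each varied by little: 50.5 ± 1.90 CPM (SD, n = 3) with vehicle and 93.3 ± 2.04 CPM (SD, n = 3) with TGFβ. The log2 fold change was 0.89 (SE 0.07, edgeR FDR 9.92e-05). Only 2.09% of all tested genes had a higher fold change. Within pairs of the same number the log2 ratio was 0.80, 0.88 and 0.97, so the rise was also present in both pairs that shared a lane. The call was kept when each culture was left out in turn, at log2 fold changes from 0.86 to 0.90. No other gene in the table lies within 1000 bases of it.

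CLDN14 (ENSG00000159261, chromosome 21 from 37832919 to 37948867, minus strand) encodes a claudin of the inner ear and kidney, in which variants cause deafness. It was close to silent with vehicle, with 20, 11 and 9 reads in cultures 1, 2 and 3, and had 41, 41 and 48 reads with TGFβ. This corresponds to 0.168 ± 0.0507 CPM (SD, n = 3) and 0.530 ± 0.119 CPM (SD, n = 3), without overlap between the groups. The log2 fold change was 1.62 (SE 0.33, edgeR FDR 0.0216), and 0.506% of all tested genes had a higher one. The log2 ratios of the pairs spread widely, from 0.88 in pair 1 to 1.89 and 2.11 in pairs 2 and 3. The call was lost without vehicle culture 2 (FDR 0.112), vehicle culture 3 (FDR 0.105), TGFβ culture 2 (FDR 0.0708) or TGFβ culture 3 (FDR 0.0546), at log2 fold changes from 1.43 to 1.64. Several genes overlap CLDN14. One is AP000695.6 (LNCTSI), a long noncoding RNA on the plus strand that shares 20450 bases with it and is known as a binding partner of SMAD3. Its counts were 0, 2 and 1 in the vehicle cultures and 13, 11 and 10 in the TGFβ cultures. It had enough reads to enter the test only through the TGFβ cultures, so these counts are a description, not a test. The kit used does not mark strand, so reads from CLDN14 and from RNA of the opposite strand cannot be told apart. CLDN14-AS1, also on the plus strand, had counts of 3, 3 and 0 and, with TGFβ, of 6, 1 and 6, too few to test.

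CLDN1 (ENSG00000163347, chromosome 3 from 190023490 to 190040264, minus strand) encodes the claudin that seals the epidermis and the bile canaliculi. It was the most abundant of the 9 genes and the only 1 called lower. Vehicle cultures 1, 2 and 3 had 252, 268 and 247 CPM and TGFβ cultures 199, 213 and 196 CPM. Every TGFβ culture was below every vehicle culture, with means of 203 ± 8.93 CPM and 256 ± 10.9 CPM (SD, n = 3 each). The log2 fold change was -0.33 (SE 0.07, edgeR FDR 0.0277; 0.000568 with the replicate block). The 3 pairs gave nearly one value, with log2 ratios of -0.34, -0.33 and -0.33. Without the block the call was kept only without vehicle culture 1 (FDR 0.0492). The FDR was 0.128 without vehicle culture 2, 0.0882 without vehicle culture 3, and 0.105, 0.0512 and 0.0675 without TGFβ cultures 1, 2 and 3, at log2 fold changes from -0.30 to -0.38. In bulk RNA fewer cells making a transcript and less of it per cell cannot be told apart.

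TJP1 (ENSG00000104067, chromosome 15 from 29991571 to 30261068, minus strand) encodes ZO-1, the scaffold that binds claudins through its PDZ domains. It had 96.2, 110 and 103 CPM in vehicle cultures 1, 2 and 3 and 132, 148 and 125 CPM in TGFβ cultures. The groups did not overlap. The log2 fold change was 0.39 (SE 0.09, edgeR FDR 0.0342; 0.000540 with the replicate block), and the pairs gave 0.46, 0.43 and 0.27. The call was lost with total-count scaling (log2 fold change 0.35, FDR 0.0723). It was kept without TGFβ culture 3 (FDR 0.0275) and lost without each other culture, with FDR values of 0.108, 0.0703 and 0.145 without vehicle cultures 1, 2 and 3 and of 0.0834 and 0.158 without TGFβ cultures 1 and 2. The log2 fold changes of these leave-outs ranged from 0.31 to 0.44. Its 3 overlapping genes had at most 61 reads in any culture, against at least 6357 for TJP1.

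**Figure D1:**
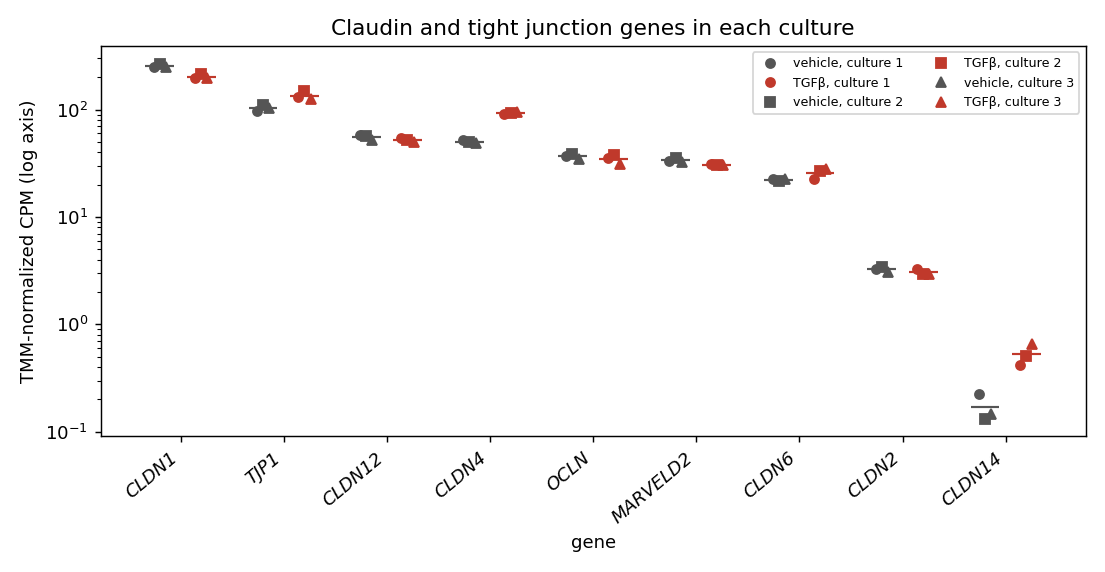
Level of the 9 tight junction genes in each of the 6 HepG2 cultures, as TMM-normalized CPM on a log axis, with vehicle in grey, TGFβ in red, marker shape for the culture number and a line at the group mean. CLDN4 sits at 48.6 to 52.4 CPM with vehicle and at 91.4 to 95.5 CPM with TGFβ, CLDN14 and TJP1 also lie higher and CLDN1 lower with TGFβ, and the other genes lie close together in the 2 groups.

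The remaining claudins of the set did not pass the test. CLDN6 (ENSG00000184697, chromosome 16 from 3064713 to 3070072, minus strand), a claudin of embryonic and some tumor cells, had 22.6, 21.9 and 22.5 CPM with vehicle and 22.8, 26.6 and 28.2 CPM with TGFβ. Culture 1 with TGFβ was barely above the vehicle cultures, and in RPKM the groups overlapped. Its log2 fold change was 0.21 (SE 0.09, edgeR FDR 0.355), and the pairs gave 0.01, 0.28 and 0.32. TNFRSF12A, a receptor gene on the opposite strand, overlaps CLDN6 over 1627 bases and rose (log2 fold change 0.66, edgeR FDR 0.00301), and without strand the reads of the shared stretch cannot be told apart.

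CLDN12 (ENSG00000157224, chromosome 7 from 90013035 to 90142716, plus strand), a claudin that lacks the usual PDZ-binding tail, had 57.7, 57.0 and 52.5 CPM with vehicle and 54.8, 52.1 and 49.6 CPM with TGFβ. The groups overlapped, and its log2 fold change was -0.10 (SE 0.08). GTPBP10, a GTPase gene on the same strand, shares 7735 bases with CLDN12 and fell (log2 fold change -0.37, edgeR FDR 0.0307). CLDN2 (ENSG00000165376, chromosome X from 106143394 to 106174091, plus strand), which forms cation and water pores, had 3.31, 3.42 and 3.07 CPM with vehicle and 3.29, 2.92 and 2.98 CPM with TGFβ. The groups overlapped here too, and the log2 fold change was -0.09 (SE 0.14). CLDN2 lies whole within MORC4 on the opposite strand, a gene with between 2905 and 4303 reads per culture and a log2 fold change of 0.00.

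Neither MARVEL-domain gene passed the test. OCLN (ENSG00000197822, chromosome 5 from 68788119 to 68853931, plus strand) had 36.8, 38.5 and 34.9 CPM with vehicle and 35.3, 37.5 and 31.0 CPM with TGFβ, overlapping groups with a log2 fold change of -0.09 (SE 0.09). Its partial copy OCLNP1 on the same chromosome had between 67 and 111 reads per culture, and reads of the shared sequence cannot be assigned to either with certainty. MARVELD2 (ENSG00000152939, chromosome 5 from 68710939 to 68740157, plus strand) had 33.1, 35.4 and 32.6 CPM with vehicle and 31.3, 30.3 and 30.4 CPM with TGFβ. Its 3 TGFβ cultures lay below the 3 vehicle cultures by a small margin, with a log2 fold change of -0.14 (SE 0.07, edgeR FDR 0.495). In all, 4 of the 9 genes (CLDN4, CLDN6, CLDN14 and TJP1) had all TGFβ values over all vehicle values, against 10.4% of all tested genes, and 2 (CLDN1 and MARVELD2) had all of them under, against 8.23% of all tested genes.

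**Figure D2:**
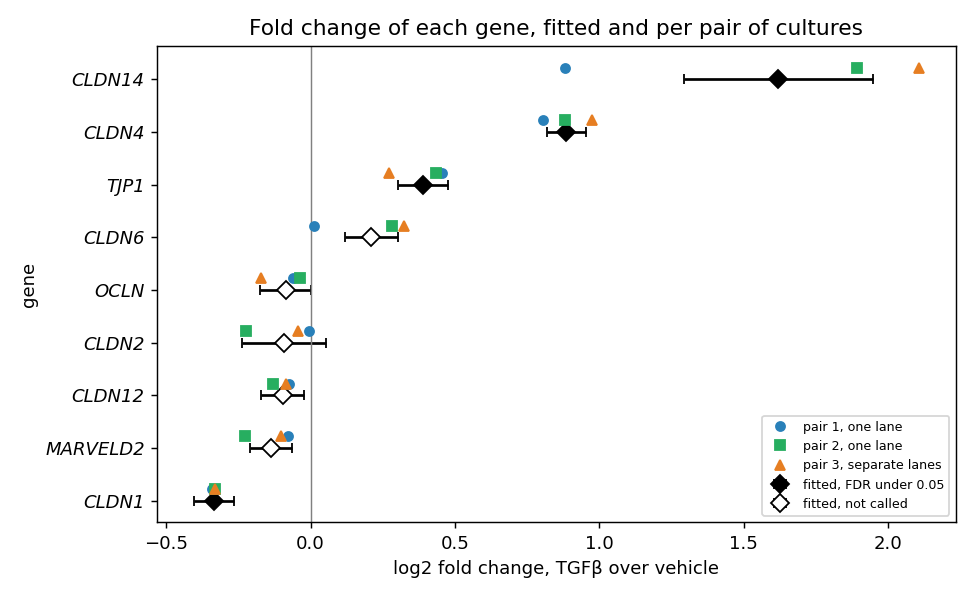
Log2 fold change of TGFβ over vehicle for each of the 9 genes, with diamonds for the fitted value and bars for 1 standard error (filled at an FDR under 0.05), and colored points for the 3 pairs of same-numbered cultures. The 3 pairs of CLDN1 nearly coincide at -0.33 to -0.34, while those of CLDN14 spread from 0.88 to 2.11.

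Per length the order of the levels with vehicle was CLDN1 at 57.7 ± 3.81 RPKM (SD, n = 3), CLDN6 at 10.6 ± 0.0639, CLDN4 at 8.89 ± 0.392, TJP1 at 7.52 ± 0.650, CLDN12 at 6.82 ± 0.429, MARVELD2 at 5.70 ± 0.385, OCLN at 4.50 ± 0.314, CLDN2 at 0.792 ± 0.0581 and CLDN14 at 0.0487 ± 0.0140 RPKM. All neighbors in this order were apart in their 3 values except TJP1 and CLDN12, which overlapped. With TGFβ the order was the same but for CLDN4, which at 16.0 ± 0.378 RPKM (SD, n = 3) moved above CLDN6 at 12.0 ± 1.13 RPKM. In that group CLDN6 and TJP1 (9.61 ± 1.17 RPKM) overlapped, and all other neighbors were apart. CLDN14 stayed last with TGFβ, at 0.149 ± 0.0292 RPKM, below CLDN2 at 0.724 ± 0.0549 RPKM.

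The make-up of claudin expression was followed as the percent of the summed RPKM of the 23 claudin genes in the table, of which 3 had no reads in any culture. CLDN1 made up 61.7%, 64.8% and 63.1% in vehicle cultures 1, 2 and 3 and 51.3%, 52.6% and 51.0% in TGFβ cultures. CLDN4 made up 10.0%, 9.53% and 9.68% with vehicle and 18.4%, 17.9% and 19.3% with TGFβ. CLDN1 thus held 11.6 percentage points less of the total (means 51.6% and 63.2%) and CLDN4 8.82 points more (means 18.6% and 9.74%), each without overlap between the groups. CLDN6 went from 11.6% ± 0.479 to 13.9% ± 1.49 (SD, n = 3), also without overlap. Shares of one total are tied, so a lower share of CLDN1 raises those of the others. CLDN6 itself was not called (edgeR FDR 0.355), and its groups overlapped in RPKM. For each of these 3 claudins the two-sided exact permutation test gave P = 0.1, the smallest that 3 cultures against 3 allow, and 0.267 after adjustment over the 8 claudins compared. CLDN12 held 7.46% ± 0.202 with vehicle and 7.19% ± 0.395 with TGFβ, which overlapped. The summed claudin level itself was 91.3 ± 4.33 RPKM with vehicle and 86.4 ± 5.07 RPKM with TGFβ (SD, n = 3, exact permutation test, P = 0.3).

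**Figure D3:**
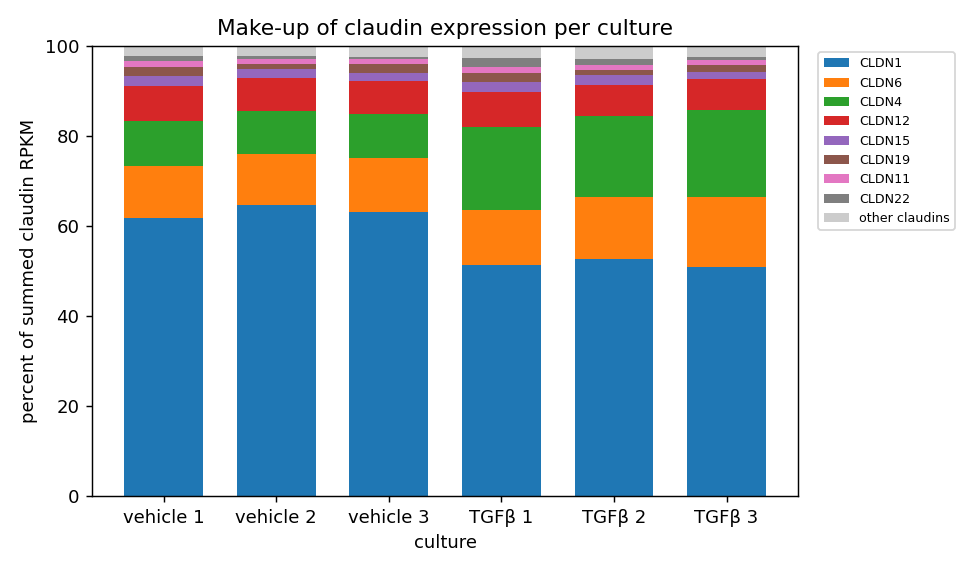
Percent of the summed RPKM of all 23 claudin genes held by each claudin, 1 bar per culture, with claudins under 1% in every culture pooled in light grey. CLDN1 (blue) holds 61.7% to 64.8% with vehicle and 51.0% to 52.6% with TGFβ, and CLDN4 (green) 9.53% to 10.0% and 17.9% to 19.3%.

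Other genes of the junction were followed in 4 lists: other claudins, other membrane proteins, scaffold and polarity proteins, and regulators of the junction. The lists were written with earlier results of these data known. Their counts beside the shares of all genes are therefore a description, not a test. Of these 71 genes, 62 were tested, 7 rose and 0 fell in edgeR, against 3.11% and 1.01% of all tested genes. DESeq2 called 9 higher and 0 lower, against 4.45% and 1.79% of all tested genes. The calls of limma-voom were 7 higher and 0 lower, against 2.99% and 0.932%. At an unadjusted P under 0.05 edgeR had 13 higher and 0 lower, against 8.69% and 4.97%. The 62 log2 fold changes had a median of 0.11, and 47 were positive. With the replicate block 15 rose and 2 fell, against 8.08% and 3.75% of all tested genes, so the share that fell was near that of all genes.

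The 7 genes that rose were scaffold, polarity and regulator genes. Of the 24 scaffold and polarity proteins, all tested, 6 rose, against 3.11% of all tested genes (median log2 fold change 0.17). C1orf106 (INAVA), which stabilizes epithelial junctions, rose most: it had 57.1, 47.9 and 56.1 CPM in vehicle cultures 1, 2 and 3 and 178, 181 and 166 CPM in TGFβ cultures. Its log2 fold change was 1.70 (SE 0.09, edgeR FDR 1.50e-05). MAGI3, a membrane-associated scaffold, went from 19.0 ± 0.776 to 35.8 ± 1.80 CPM (SD, n = 3), a log2 fold change of 0.91. CGN (cingulin) and CGNL1 (paracingulin), which link ZO proteins to the cytoskeleton, had log2 fold changes of 0.86 and 0.53. PRKCZ, an atypical kinase of the PAR polarity complex, had 0.55, and AMOTL2, a relative of angiomotin, had 0.43. Of the 18 regulators tested only 1 rose, against 3.11% of all tested genes. It was ARHGEF18, an exchange factor that activates RhoA at junctions. Its level went from 54.8 ± 3.96 to 124 ± 21.7 CPM (SD, n = 3), a log2 fold change of 1.17. The groups of all 7 genes were apart, with TGFβ higher, as were those of 10.4% of all tested genes. The 7 were selected in these same cultures, so their separation adds no support.

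TJP3 (ZO-3), a relative of ZO-1, did not pass without the block. It had overlapping groups, with 9.91, 5.15 and 11.1 CPM in vehicle cultures 1, 2 and 3 and 14.4, 8.72 and 15.4 CPM in TGFβ cultures (log2 fold change 0.56, edgeR FDR 0.456; 0.00118 with the replicate block). TJP3 was low in culture 2 of both groups.

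Of the 17 other claudins 11 were tested, with a median log2 fold change of 0.10 (range -0.60 to 0.87). The calls were 0 in edgeR, DESeq2 and limma-voom. At an unadjusted P under 0.05 edgeR had 1 higher, CLDN9, and 0 lower, against 8.69% and 4.97% of all tested genes. The one with most reads, CLDN11, a claudin of myelin and testis, had a log2 fold change of -0.02. With the replicate block 2 rose and 0 fell, against 8.08% and 3.75% of all tested genes. CLDN9, which lies 206 bases from CLDN6 on the opposite strand, had counts of 44, 41 and 36 and, with TGFβ, of 77, 87 and 73 (edgeR FDR 0.0742; 0.0245 with the block). CLDN22 had 3.31, 2.32 and 1.23 CPM in vehicle cultures 1, 2 and 3 and 5.54, 3.91 and 2.10 CPM in TGFβ cultures, so culture 1 was highest and culture 3 lowest in both groups (FDR 0.470; 0.00259 with the block). CLDN16, whose 5′ end in the table is 65 bases from that of CLDN1, had between 14 and 32 reads per culture and a log2 fold change of 0.12.

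Of the 11 other membrane proteins 9 were tested, and edgeR and limma-voom called 0 while DESeq2 called 1 higher, ESAM. The share of all tested genes called higher was 3.11% in edgeR, 2.99% in limma-voom and 4.45% in DESeq2. At an unadjusted P under 0.05 edgeR had 2 higher and 0 lower, against 8.69% and 4.97% of all tested genes. F11R (JAM-A), an adhesion protein with most reads among them, had a log2 fold change of 0.06 (SE 0.08). With the replicate block ESAM and CRB3 rose and CXADR, the coxsackievirus and adenovirus receptor, fell, with log2 fold changes of 0.68, 0.26 and -0.19 in that fit. PARD6A and VASP rose and WNK4 fell with the block as well, and over all tested genes 8.08% rose and 3.75% fell.

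Transcription factors known for claudin or occludin promoters were listed too. There were 17, of which 10 were tested. In edgeR 1 rose and 0 fell, against 3.11% and 1.01% of all tested genes. At an unadjusted P under 0.05, 2 were higher and 1 was lower, against 8.69% and 4.97%. The median was 0.05 on the log2 scale. ELF3, an ETS factor of epithelia, rose from 16.7 ± 1.67 to 26.3 ± 1.46 CPM (SD, n = 3), a log2 fold change of 0.65 (SE 0.10, edgeR FDR 0.00415). SNAI1, a repressor of claudins and occludin in EMT, had 1.21, 2.02 and 0.974 CPM with vehicle and 1.04, 1.38 and 1.07 CPM with TGFβ, which overlapped. SNAI2, ZEB2 and TWIST1 had too few reads to test.

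**Figure D4:**
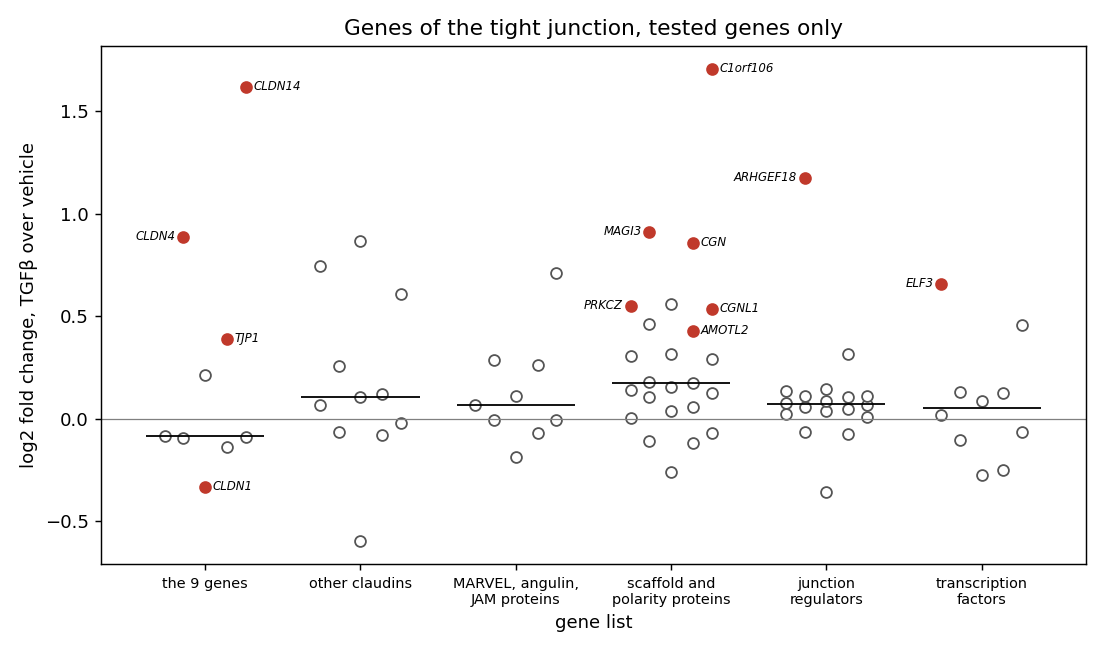
Fitted log2 fold change of TGFβ over vehicle for every tested gene of the 9 genes, the 4 junction lists and the transcription factor list, with called genes (FDR under 0.05) filled and named and a line at each median. CLDN1 at -0.33 is the only filled point below 0, and the medians run from -0.09 for the 9 genes to 0.17 for scaffold and polarity proteins.

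The genes whose log2 CPM followed a called gene most closely over the 6 cultures were found by Pearson's correlation among all tested genes. For CLDN4 they were UBAP1, IQCJ-SCHIP1 and SDC4 (r = 0.999, 0.999 and 0.998), of which SDC4, the syndecan-4 gene, rose by a log2 fold change of 0.90. For CLDN1 they were AMIGO1, EVA1A and SLC7A2 (r = 0.996, 0.995 and 0.995). For CLDN14 they were INIP, RNF121 and NTAN1P2 (r = 0.995, 0.993 and 0.990). For TJP1 they were CTD-2515H24.4, PTPRB and BTBD19 (r = 0.996, 0.996 and 0.995). The points of each correlation share libraries and the difference between the groups, and the highest of 22747 values were taken.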

How the data were processed

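RNA-seq of 6 HepG2 cultures (3 vehicle, 3 TGFβ) was analyzed from the table that the authors deposited. Libraries were made with TruSeq v2 for mRNA and paired reads were aligned to hg19, with TopHat2 2.0.6 in the submitters' processing notes, and counted per gene with MAPRseq (HTSeq in those notes). The deposited counts are raw whole numbers, and the deposited RPKM values scale them by coding length and a library total. The annotation release, strand setting and rule for overlapping genes were not given in the sources used.

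Counts of the whole table were fitted with edgeR 4.0.16 (limma 3.58.1, R 4.3.3): filterByExpr, TMM, robust quasi-likelihood F test of group, Benjamini-Hochberg over 22747 genes. Standard errors follow from the F statistic. The fit was tested on simulated data. Replicates differed by far more than counting noise (mean chi-square per gene at least 21.0). Deviations from the group means correlated at 0.344, 0.205 and 0.298 for equal culture numbers and at most 0.0104 for unequal ones. Centering within each group ties these values together, so part of the contrast is built in. Same-numbered cultures were treated as pairs in the pair ratios and the replicate block only. The main fit, its FDR values and the leave-outs used the group alone and ignore the pairing. Pair ratios are on log2 CPM with a prior count of 0.5. Claudin shares used exact permutation tests (scipy 1.17.1).

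The 9 genes and all lists were chosen with earlier results of these data known. Named genes are the 9, the called genes of each list or else the one with most reads, genes overlapping the 9, and the 3 most correlated genes of each called one; others were named after their values were seen. Strands came from GENCODE on GRCh37 by gene identifier. Alternatives were DESeq2 1.42.0 (its test, and its size factors in edgeR), limma-voom, scaling by total count, dropping the filter or requiring 10 counts throughout, the replicate block, cultures 1 and 2 alone, and leaving out each culture.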

Additional observations from a re-analysis of the deposited data

How the results depend on the processing

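The direction of change of all 9 genes was the same under every alternative that gave a value (125 values, 0 reversed, 110 on the same side of the FDR threshold). Leaving out single cultures, which leaves one group with 2, moved the number of the 9 genes called higher to between 1 and 2 and the number called lower to between 0 and 1. The number of other junction genes called higher was then between 4 and 7. Over all tested genes, at least 23180 per fit, these leave-outs called between 394 and 778 higher and between 91 and 220 lower. With the replicate block 15 of the 62 tested junction genes were higher and 2 were lower, against 8.08% and 3.75% of all tested genes. With cultures 1 and 2 only, each on its partner's lane and with the block, 15 were higher and 0 lower. Over all genes 1890 of 23062 were then higher and 1173 lower. The block changed no call among the 9 genes. CLDN14 was not tested with at least 10 counts in every library, since vehicle culture 3 had 9 reads. The order of the mean levels of the 9 genes was the same when each culture was left out. Depth limits CLDN14 most, with between 9 and 48 reads per culture.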
